A study of Homo sapiens with 6 samples.

Results

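G protein-coupled receptors are cell-surface proteins that cross the membrane repeatedly and signal through heterotrimeric G proteins, receptor kinases and arrestins. The symbol GPR was given to receptors that were found by sequence before their ligand was known, and many of them are still orphans. Adhesion receptors, whose symbols begin with ADGR, carry a long extracellular part that binds matrix or neighbouring cells and is cut next to the membrane at an autoproteolysis site. Several GPR symbols belong to proteins of the Golgi, lysosome or other internal membranes that are not known to act as classical receptors.

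The genes described here are the 107 of 19923 rows of the gene count table whose symbol starts with GPR and a digit (78 genes) or with ADGR and a letter (29 genes). They were chosen by symbol alone, and no measured value entered the rule, although the family was taken up with earlier results of the same comparison known. Their RNA was sequenced in BT549 cells, an established human line from a breast tumour that the labels place in mammary gland epithelium, as 3 libraries after treatment labelled ENL and 3 control libraries. What ENL stands for is not written out, a dose, time or vehicle is not given, and all 6 libraries come from this single line. Separate cultures are not mentioned for the replicates, so the p-values below reflect variation among these libraries alone, which may be technical.

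Library totals were 74457932 to 85310759 units in ENL and 76387436 to 80964005 in control. About 4 units of the table stand for 1 sequenced fragment. On the second principal component, with 14.3% of the variance, ENL library 3 scored 55.8 while ENL libraries 1 and 2 scored -22.1 and -26.3. The defining epithelial genes EPCAM and CDH1 did not exceed 0.358 CPM in any library, and of 5 tested epithelial markers KRT8 alone was called, with 38.0 CPM in ENL and 15.8 CPM in control. KRT18 averaged 23.95 CPM in ENL and 26.3 CPM in control (edgeR adjusted p = 0.528). Of 4 tested mesenchymal markers 3 were called higher and 0 lower, against 20.0% and 18.4% of all tested genes. VIM averaged 5949 CPM in ENL and 2744 CPM in control, and FN1 387.5 CPM in ENL and 289.9 CPM in control (edgeR adjusted p = 0.00122 and 0.018). The FN1 call was lost without control library 2 (edgeR adjusted p = 0.0678) and with scaling by library totals alone (0.201). ZEB1 was not called (edgeR adjusted p = 0.320). The endothelial and neural markers with enough counts, 1 and 2 genes, did not pass the test. CPM is the share of a gene in the library total after TMM scaling, and in bulk RNA fewer cells expressing a gene and less RNA per cell cannot be told apart.

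Of the 107 genes, 33 were expressed, taken as a mean of at least 1 CPM in at least 1 group. In ENL cells 26 genes reached that level, against 32 in control cells. The 7 that reached it in control alone included GPR4, GPR19, GPR39, GPR62, GPR75 and ADGRE2, and GPR155 reached it in ENL alone. Of all 19923 genes 12416 were expressed by the same limit, 12019 in ENL and 12219 in control. Over all genes 397 reached it in control alone and 197 in ENL alone. The expressed genes closest to the limit were GPR62 and GPR155, whose higher group means were 1.01 and 1.09 CPM, and the next gene below it was ADGRG6 at 0.882 CPM. Lowering the limit to 0.5 CPM gave 38 genes, and raising it to 5 CPM gave 18. No count was seen in any of the 6 libraries for 20 genes, among them GPR65, GPR55, GPR15, ADGRE3 and ADGRF2. A further 43 genes had some units but too few to be tested, and the highest group mean among them was 0.152 CPM, that of ADGRD2 in control.

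In ENL cells 15 of the 44 tested genes were lower and 1 was higher than in control cells, by the quasi-likelihood test of edgeR, adjusted after Benjamini and Hochberg over all 14086 tested genes, at a threshold of 0.05. Among all tested genes, 18.4% were called lower and 20.0% higher, which is 2585 and 2819 genes. Scaling by library totals alone moved the median over all genes to a log2 fold change of -0.23 and turned these into 3996 lower and 1804 higher. Of the 18 genes that averaged 5 CPM or more in the higher group, 9 were called lower and 1 higher, where 19.6% of all tested genes at that level were called lower and 23.8% higher. The ENL libraries lay wholly below the control libraries for 19 of the 44 genes and wholly above for 4, against 27.6% and 26.4% of all tested genes. The median log2 fold change was -0.54 over the 44 genes and -0.02 over all tested genes. These counts describe the genes with enough counts, and 7 of the 44 passed the filter on low counts through the control libraries alone and 1 through the ENL libraries alone. Among the 7 were GPR62 and GPR75, both called lower. Passing in that way favours a lower value in ENL, so these calls lend no weight to the count of 15. Without ENL library 3, 18 genes were lower, of which 14 were among the 15. That fit tested 14425 genes in all, and the 18.4% above does not belong to it, so the 18 cannot be set against that share.

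**Figure D1:**
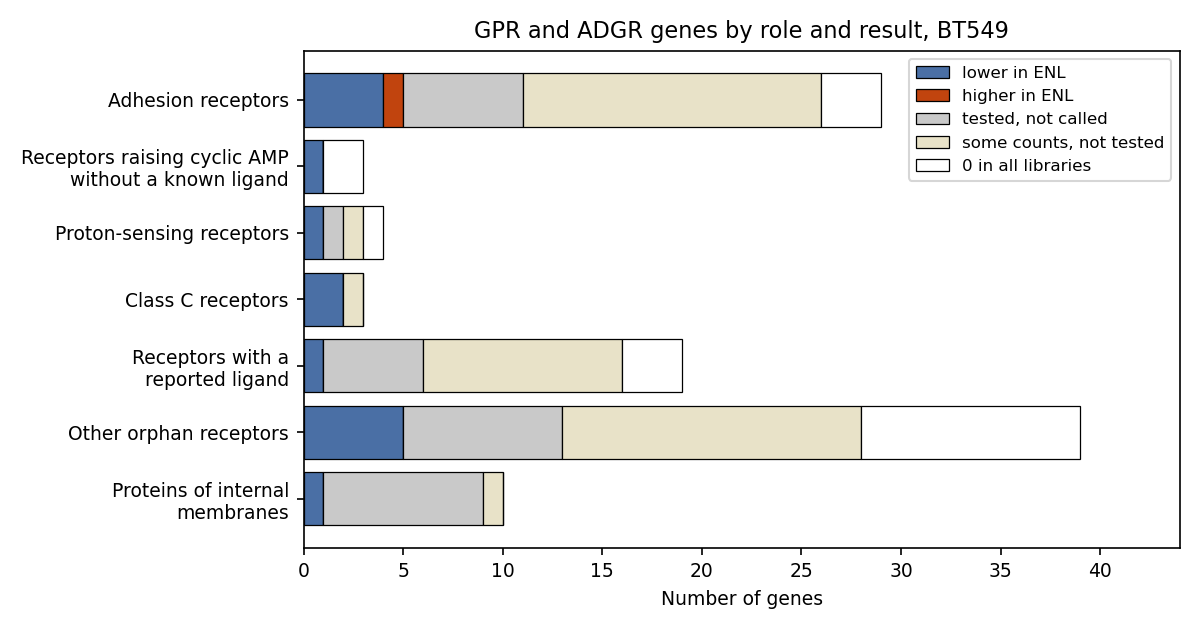
Number of genes (horizontal axis) in each role, divided by the result of the comparison of 3 ENL with 3 control libraries. The internal-membrane proteins have 9 of 10 genes tested and 1 called lower, whereas most adhesion and orphan receptors had too few counts to be tested.

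Levels can be compared between genes only per transcript length, for which the longest annotated protein-coding transcript was used. On that scale 4 of the internal-membrane proteins came first. GPR108 had 20.6 CPM per kilobase in ENL and 18.7 in control, GPR107 16.5 in ENL and 15.5 in control. The near-identical GPR89B had 10.5 in ENL and 13.1 in control, and GPR89A 10.1 in ENL and 12.4 in control. The receptors with the highest control levels were ADGRL1 with 5.69 CPM per kilobase in ENL and 9.02 in control, GPR3 with 5.19 in ENL and 8.69 in control, and ADGRA3 with 3.72 in ENL and 8.51 in control. GPR137 had 5.80 in ENL and 6.11 in control on the same scale, which in ENL is close to ADGRL1. At the other end of the genes with at least 5 CPM, GPR158 had 0.313 CPM per kilobase in ENL and 0.719 in control.

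**Figure D2:**
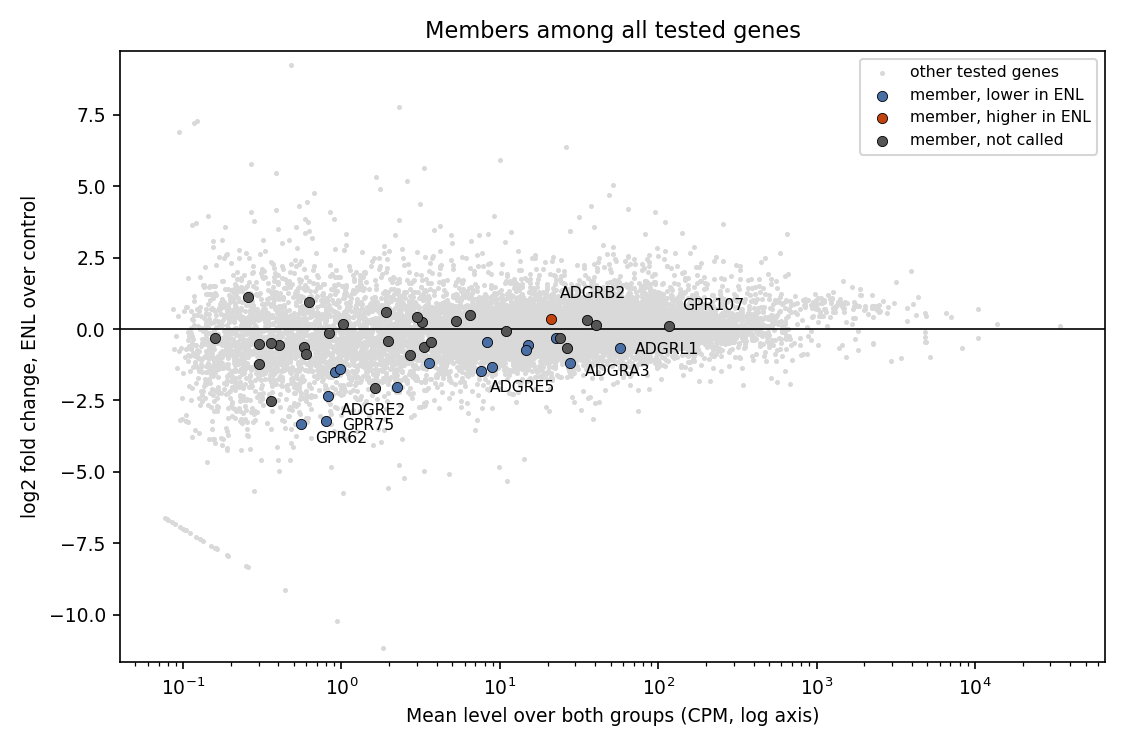
Log2 fold change of ENL over control (vertical axis) against the mean CPM over both groups (log axis) for all tested genes in grey and the 44 tested members in colour. The 15 called lower range from GPR62 and GPR75, below 1 CPM on this axis, to ADGRL1 with 44.6 CPM in ENL and 70.8 CPM in control, and ADGRB2 is the only member called higher.

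Adhesion receptors came to 8 expressed genes of 29, and of 11 tested 4 were lower in ENL (ADGRA3, ADGRL1, ADGRE5 and ADGRE2) and 1 was higher (ADGRB2). Over all tested genes 18.4% were called lower and 20.0% higher. Summed over the 29 genes, the level was 120, 117 and 140 CPM in the ENL libraries and 177, 185 and 195 CPM in the control libraries. ADGRA3, also called GPR125 (chromosome 4, 22345071 to 22516054, minus strand, GRCh38), had 16.3, 15.1 and 19.4 CPM in ENL libraries 1 to 3 and 40.1, 38.7 and 37.8 CPM in control libraries 1 to 3. All ENL libraries lay far below all control libraries. Its log2 fold change was -1.19 ± 0.12 (SE, n = 3 per group, edgeR adjusted p = 0.00052). Its relative ADGRA2, or GPR124, known in brain endothelium as a partner of RECK in WNT7 signalling, averaged 5.80 ± 0.693 CPM in ENL and 4.79 ± 0.570 CPM in control (SD, n = 3). That gene did not pass (log2 fold change 0.28 ± 0.17, edgeR adjusted p = 0.229), and it shares 1629 exon bases with BRF2 on the opposite strand, whose own log2 fold change was 0.95 (edgeR adjusted p = 0.000345). Strand-specific counting is not stated, so reads of the 2 genes cannot be told apart.

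The latrophilins bind teneurins and FLRT proteins and are known as receptors of black widow spider toxin. ADGRL1 (chromosome 19, 14147743 to 14206187, minus strand) had the highest CPM among the ADGR genes. Its values were 43.9, 45.8 and 44.3 CPM in ENL and 63.9, 72.9 and 75.7 CPM in control. The ENL values lay close together and below every control value (log2 fold change -0.67 ± 0.09, edgeR adjusted p = 0.00189). ADGRL2 (chromosome 1, 81306160 to 81992436, plus strand) had 14.0, 13.9 and 33.8 CPM in ENL and 32.2, 28.7 and 36.2 CPM in control. ENL libraries 1 and 2 lay below all control libraries, while ENL library 3 lay within their range. Its log2 fold change of -0.65 ± 0.38 did not pass (edgeR adjusted p = 0.221), and without ENL library 3 it was -1.20 (edgeR adjusted p = 0.00115). ADGRL3 and ADGRL4 had too few counts to be tested.

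ADGRE5, known as CD97, is an adhesion receptor of leukocytes and many tumour cells that binds CD55 and THY1. It had 4.19, 3.46 and 4.45 CPM in ENL and 8.66, 11.6 and 13.5 CPM in control. Every ENL library lay below every control library (log2 fold change -1.48 ± 0.20, edgeR adjusted p = 0.0018). Of its partners, CD55 rose to 57.7 ± 5.04 CPM in ENL, against 40.3 ± 3.22 CPM in control, and THY1 fell to 75.1 ± 20.9 CPM in ENL, against 130 ± 5.81 CPM in control (edgeR adjusted p = 0.00844 and 0.0185). The CD55 call was lost with scaling by library totals alone (log2 fold change 0.31, edgeR adjusted p = 0.0779). The THY1 call was lost without control library 2 (edgeR adjusted p = 0.0568), control library 3 (0.0556) or ENL library 1 (0.0597). ADGRE2, a myeloid relative with which 13.3% of the 50-base words of the ADGRE5 transcript are shared, had 0.337, 0.176 and 0.289 CPM in ENL and 1.57, 0.876 and 1.69 CPM in control. Its ENL values also lay below its control values (log2 fold change -2.36 ± 0.43, edgeR adjusted p = 0.00565), but it shares 1354 exon bases with ZNF333 on the opposite strand, at 9.79 CPM in ENL and 6.11 CPM in control. How reads in the shared bases were assigned is not stated, so the ADGRE2 value is uncertain. The leukocyte marker list moved with these 2 genes. Of its 6 genes 4 were tested and 2 of them, CD14 and CSF1R, were lower, against 18.4% of all tested genes. The call of CSF1R was lost without any of control libraries 1 to 3 (edgeR adjusted p = 0.0642, 0.0969 and 0.0835) or ENL library 2 (0.0716). The list summed to 1.48 to 2.61 CPM over the ENL libraries and 8.66 to 13.7 CPM over the control libraries. CD14 made up most of it, with 1.71 ± 0.565 CPM in ENL and 9.68 ± 1.31 CPM in control. PTPRC, the defining leukocyte gene, had 0, 0.235 and 0.0482 CPM in ENL and 0.286, 1.197 and 0 CPM in control, where control library 2 alone was high, and did not pass (edgeR adjusted p = 0.316). None of the 6 was at 0 in all libraries. Their part in the result was not tested.

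The brain-type adhesion receptor ADGRB2, or BAI2, was the only gene within the symbol rule that was called higher. It had 23.6, 23.1 and 24.5 CPM in ENL and 18.5, 19.0 and 17.9 CPM in control, and every ENL library lay above every control library. The log2 fold change was 0.36 ± 0.09 (edgeR adjusted p = 0.0194). The call was lost without control library 1 (edgeR adjusted p = 0.0619), control library 2 (0.0574) or control library 3 (0.0782), and with scaling by library totals alone, which gave a log2 fold change of 0.16 (edgeR adjusted p = 0.246) on the scaling that moves the median of all genes to -0.23. ADGRG1, or GPR56, a receptor that binds collagen III and TGM2, had 9.81, 6.83 and 6.19 CPM in ENL and 4.36, 5.86 and 5.87 CPM in control. Its ENL libraries lay above all control libraries without a call (log2 fold change 0.50 ± 0.22, edgeR adjusted p = 0.117). ADGRG6, known for its role in Schwann cell myelination in mice and fish, averaged 0.791 ± 0.393 CPM in ENL and 0.882 ± 0.351 CPM in control (SD, n = 3). No gene of subfamilies ADGRD, ADGRF and ADGRV had enough counts to be tested.

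**Figure D3:**
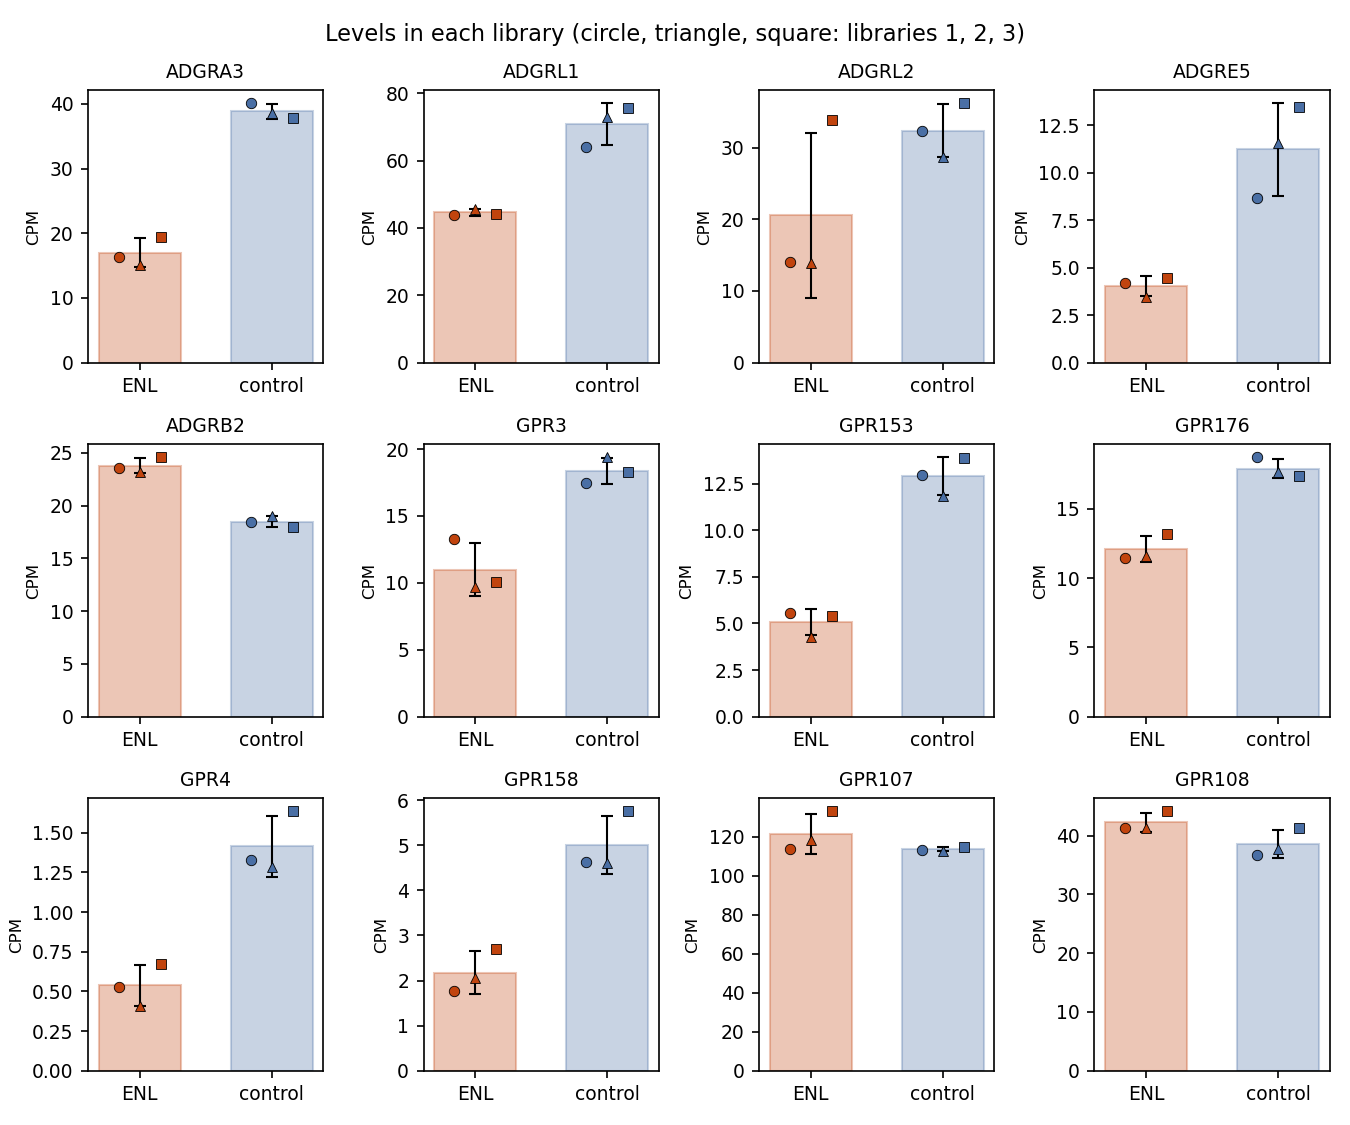
CPM of 12 members in each library (symbols), with the mean (bar) and SD (whisker) of 3 libraries per group. ADGRL2 in ENL library 3 (square) lies at 33.8 CPM, beside control libraries at 28.7 to 36.2 CPM, while GPR107 and GPR108 have nearly equal bars.

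Among the orphan receptors, GPR3 is known to raise cyclic AMP through Gs without an added ligand. GPR3 (chromosome 1, 27392644 to 27395814, plus strand) had 13.3, 9.66 and 10.03 CPM in ENL and 17.5, 19.4 and 18.3 CPM in control. The highest ENL library lay below the lowest control library (log2 fold change -0.74 ± 0.15, edgeR adjusted p = 0.00868). Its close relatives GPR6 and GPR12 had 0 counts in all 6 libraries, so GPR3 was the only detected gene of the trio. GPR161, a ciliary receptor that restrains hedgehog signalling, had 3.94, 2.04 and 1.87 CPM in ENL and 3.57, 4.23 and 4.31 CPM in control. ENL library 1 lay within the control range and the other two below it (log2 fold change -0.63 ± 0.31, edgeR adjusted p = 0.155). Without ENL library 1 its log2 fold change was -1.04 (edgeR adjusted p = 0.0148).

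GPR153, a class A orphan (chromosome 1, 6247346 to 6260975, minus strand), had 5.56, 4.27 and 5.39 CPM in ENL and 13.0, 11.8 and 13.8 CPM in control. The groups were well apart (log2 fold change -1.34 ± 0.15, edgeR adjusted p = 0.000845). Its paralog GPR162 averaged 3.07 ± 0.475 CPM in ENL and 4.25 ± 0.670 CPM in control, which did not pass (edgeR adjusted p = 0.110). GPR162 shares 114 exon bases with P3H3 on the same strand, which was lower (log2 fold change -0.53, edgeR adjusted p = 0.00532). GPR176, an orphan known from the circadian centre of the mouse brain, had 11.5, 11.6 and 13.2 CPM in ENL and 18.7, 17.6 and 17.4 CPM in control, with no overlap (log2 fold change -0.57 ± 0.11, edgeR adjusted p = 0.00735). GPR157 averaged 7.01 ± 0.248 CPM in ENL and 9.70 ± 0.347 CPM in control (log2 fold change -0.47 ± 0.11, edgeR adjusted p = 0.0171). Its call was lost without control library 1 (edgeR adjusted p = 0.0636), control library 2 (0.0634), control library 3 (0.0509) or ENL library 1 (0.0545). GPR19 averaged 0.474 ± 0.105 CPM in ENL and 1.34 ± 0.266 CPM in control (log2 fold change -1.49 ± 0.34, edgeR adjusted p = 0.0131), and lost its call without control library 2 (0.0568).

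GPR62, an orphan receptor, had 0, 0.0587 and 0.229 CPM in ENL and 1.17, 1.09 and 0.788 CPM in control. These ENL values stand for 0, 4 and 19 units, a handful of fragments (log2 fold change -3.34 ± 0.97, edgeR adjusted p = 0.0321). GPR62 passed the filter on low counts through the control libraries alone. Its call was lost without control library 1 (edgeR adjusted p = 0.0963), control library 2 (0.0813), control library 3 (0.0683) or ENL library 2 (0.100). GPR135 had 1.65, 1.06 and 2.97 CPM in ENL and 3.60, 4.28 and 2.72 CPM in control. ENL library 3 lay within the control range (log2 fold change -0.90 ± 0.39, edgeR adjusted p = 0.114), and without it the log2 fold change was -1.37 (edgeR adjusted p = 0.0189). It shares 202 exon bases with L3HYPDH on the same strand, at 10.3 CPM in ENL and 13.5 CPM in control. GPR146 had 0.454, 3.76 and 2.70 CPM in ENL and 1.41, 1.95 and 1.16 CPM in control, so ENL library 1 lay below and the other two above all control libraries (edgeR adjusted p = 0.520, and 0.0416 without ENL library 1). GPR160 likewise did not pass in all libraries (edgeR adjusted p = 0.288) but was called lower without ENL library 1 (0.0415). In the fit of all libraries GPR160 also passed the filter on low counts through the control libraries alone.

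The class C members resemble the metabotropic amino acid receptors. GPR158, a receptor reported to sense glycine and to hold RGS7 at the membrane, had 1.77, 2.06 and 2.71 CPM in ENL and 4.64, 4.61 and 5.75 CPM in control, with no overlap (log2 fold change -1.20 ± 0.22, edgeR adjusted p = 0.0056). GPR158 lies over 601 exon bases of an antisense RNA that has no row in the table. Antisense RNAs without a row also overlap ADGRL1 (473 exon bases), ADGRE5 (252) and GPR146 (1562). On the same strand, GPR176 shares 133 exon bases with an RNA without a row, and GPR160 shares 519 with a pseudogene without a row. GPR179, a class C protein of the retina, had too few counts to be tested.

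Receptors that sense acidity were near the limit of detection. GPR4 had 0.527, 0.411 and 0.674 CPM in ENL and 1.33, 1.28 and 1.64 CPM in control, with no overlap (log2 fold change -1.39 ± 0.32, edgeR adjusted p = 0.0136). The call was lost without control library 3 (edgeR adjusted p = 0.0584). GPR4 shares 114 exon bases with OPA3 on the same strand, which fell to 14.4 CPM in ENL, against 30.5 CPM in control (log2 fold change -1.09, edgeR adjusted p = 0.000551), so their reads could be divided in different ways. GPR65 had 0 counts in all libraries and GPR132 too few for a test.

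Of the receptors with a reported ligand 3 of 19 were expressed and 1 of 6 tested was lower, against 18.4% of all tested genes. GPR39, a zinc-sensing receptor, had 0.937, 0.910 and 0.0482 CPM in ENL and 2.76, 2.48 and 2.65 CPM in control. All ENL libraries lay below all control libraries, with ENL library 3 far below the other two. The log2 fold change of -2.06 ± 0.86 did not pass (edgeR adjusted p = 0.106), and without ENL library 3 it was -1.49 (edgeR adjusted p = 0.00381). GPR75, for which a fatty acid ligand has been reported, had 0.249, 0 and 0.205 CPM in ENL and 1.25, 1.17 and 1.91 CPM in control (log2 fold change -3.23 ± 0.92, edgeR adjusted p = 0.0315). Its ENL values rest on 17, 0 and 17 units, and the call was lost without control library 1 (edgeR adjusted p = 0.0745), control library 2 (0.0681), control library 3 (0.0944), ENL library 1 (0.0557) or ENL library 3 (0.0713). Like GPR39, GPR75 passed the filter on low counts through the control libraries alone. A readthrough transcript with ASB3, which shares 162 exon bases with GPR75, has no row of its own. GPR1, a chemerin receptor, averaged 3.48 ± 0.337 CPM in ENL and 2.95 ± 0.576 CPM in control (edgeR adjusted p = 0.390). GPR183, the receptor of an oxysterol made from 25-hydroxycholesterol, had counts in control library 2 alone, at 0.111 CPM, while CH25H, which makes 25-hydroxycholesterol, was at 51.4 ± 2.50 CPM in ENL and 0.626 ± 0.147 CPM in control (log2 fold change 6.36 ± 0.20, edgeR adjusted p = 1.27e-05). The prosaposin gene PSAP, whose product is a reported ligand of GPR37, rose to 1785 ± 43.1 CPM in ENL, against 1176 ± 20.2 CPM in control (edgeR adjusted p = 0.00104). CH25H and PSAP belong to a list of ligand sources with 3 of 4 tested genes higher, against 20.0% of all tested genes. CYP7B1, on the same list, had no counts in ENL, had 0.272 CPM in control library 2 alone, and was not tested. Whether the supply of the GPR183 ligand differed was not tested. GPR37 itself averaged 0.329 ± 0.280 CPM in ENL and 0.478 ± 0.118 CPM in control (edgeR adjusted p = 0.563).

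Proteins of internal membranes were mostly expressed, 9 of 10, and 1 of 9 tested was lower, against 18.4% of all tested genes. GPR107, a Golgi protein, had 114, 118 and 133 CPM in ENL and 113, 113 and 115 CPM in control, and GPR108, its paralog, 41.4, 41.3 and 44.1 CPM in ENL and 36.7, 37.7 and 41.3 CPM in control. Neither passed (log2 fold change 0.10 ± 0.08 and 0.13 ± 0.09, edgeR adjusted p = 0.385 and 0.272), and both log2 fold changes turned negative with scaling by library totals alone (-0.11 and -0.07). GPR180 had 45.3, 32.6 and 40.8 CPM in ENL and 35.2, 30.2 and 30.1 CPM in control, without a call (edgeR adjusted p = 0.124, and 0.0346 without ENL library 2). The lysosomal proteins GPR137, GPR137B and GPR137C had mean levels of 10.7, 3.42 and 1.69 CPM in ENL and 11.3, 2.57 and 2.26 CPM in control, and GPR155, a lysosomal cholesterol sensor, 1.09 CPM in ENL and 0.958 CPM in control. These 4 did not pass (lowest edgeR adjusted p = 0.0921, that of GPR137B). GPR137 shares 404 exon bases with BAD on the opposite strand, at 61.2 CPM in ENL and 46.9 CPM in control.

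GPR89A and GPR89B encode near-identical copies of a Golgi pH regulator, and 89.0% of the 50-base words of the GPR89B transcript also occur in GPR89A. GPR89B had 20.2, 19.5 and 21.2 CPM in ENL and 26.4, 24.6 and 24.8 CPM in control (log2 fold change -0.32 ± 0.09, edgeR adjusted p = 0.0338). GPR89A had 23.3, 20.9 and 20.1 CPM in ENL and 27.2, 26.8 and 25.2 CPM in control (log2 fold change -0.30 ± 0.10, edgeR adjusted p = 0.0542). In both copies every ENL library lay below every control library, and the values of single copies are uncertain because they share reads. Their sum had a log2 fold change of -0.31 (edgeR adjusted p = 0.0232). The call of GPR89B alone was lost without any of control libraries 1 to 3 (edgeR adjusted p = 0.114, 0.0857 and 0.0924), ENL library 1 (0.0881) or ENL library 2 (0.0780).

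**Figure D4:**
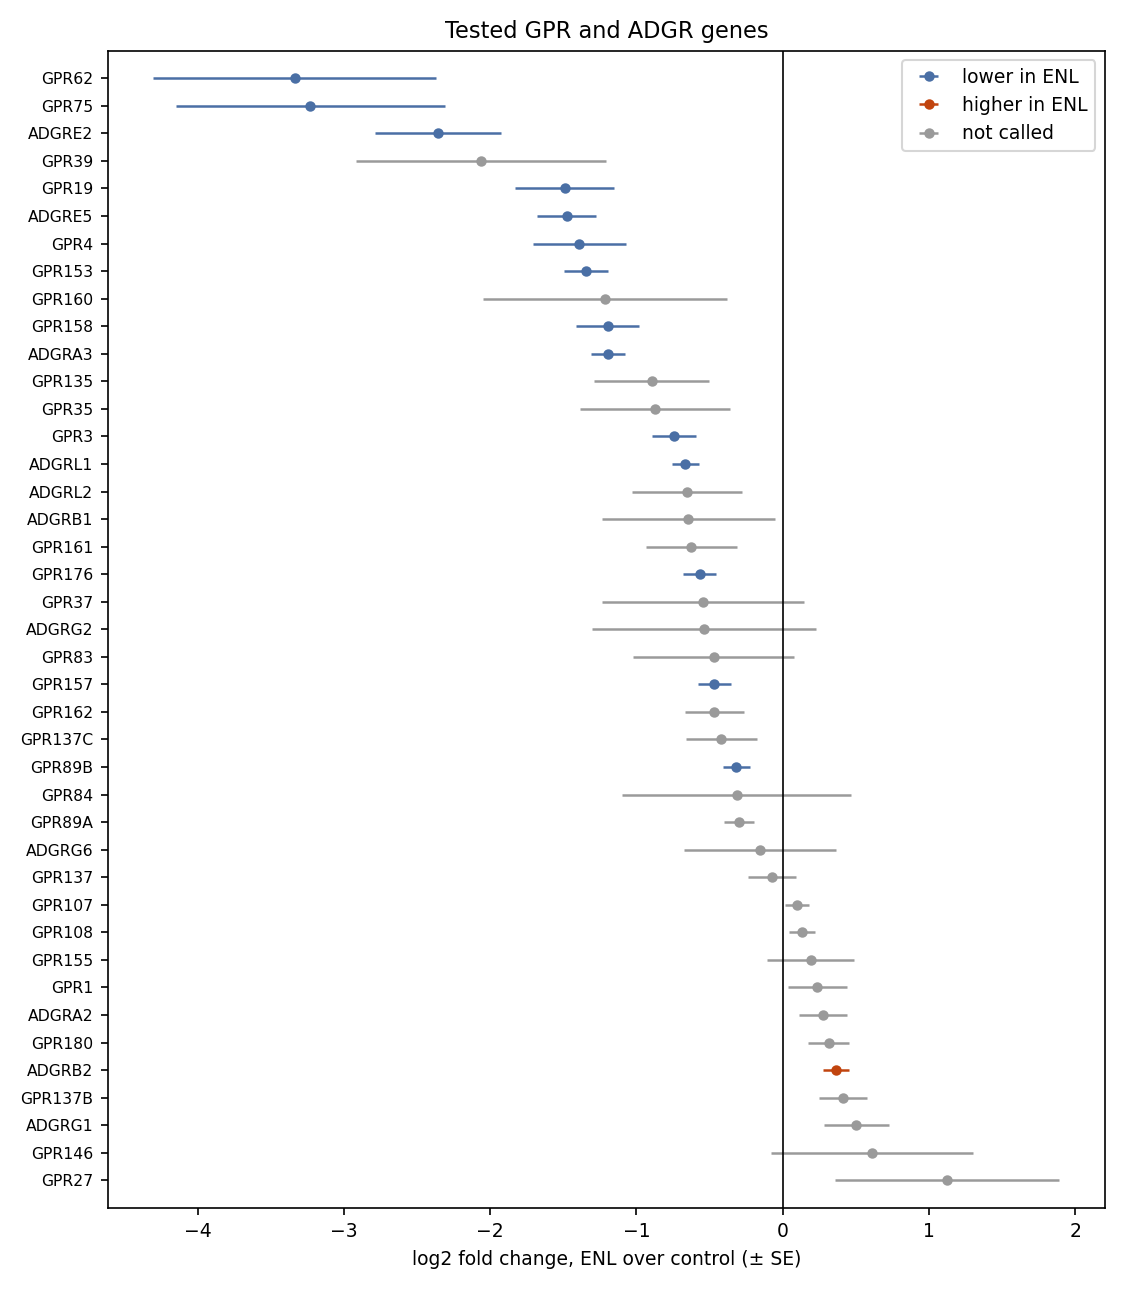
Log2 fold change of ENL over control with its standard error (horizontal axis) for 41 of the 44 tested members, sorted. GPR62 and GPR75, which have few counts, have the widest intervals among the called genes, and 30 of the 41 lie below 0.

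Promoter sequence was at hand in RefSeq (GRCh38.p14) for 78 of the 107 genes. It is shown here for the called genes with a single listed start that averaged 10 CPM or more in the higher group, 3 that fell (ADGRA3, GPR153 and GPR3) and the 1 that rose (ADGRB2). Each line gives the 250 bases before the start, 5′ to 3′ on the strand of the gene. Capitals mark the GC box GGGCGG and the core TGACG of the cyclic AMP response element (CRE), on either strand. The windows are chr4:22516067-22516316 (minus) for ADGRA3, chr1:6261099-6261348 (minus) for GPR153, chr1:27392372-27392621 (plus) for GPR3 and chr1:31764341-31764590 (minus) for ADGRB2.
ADGRA3: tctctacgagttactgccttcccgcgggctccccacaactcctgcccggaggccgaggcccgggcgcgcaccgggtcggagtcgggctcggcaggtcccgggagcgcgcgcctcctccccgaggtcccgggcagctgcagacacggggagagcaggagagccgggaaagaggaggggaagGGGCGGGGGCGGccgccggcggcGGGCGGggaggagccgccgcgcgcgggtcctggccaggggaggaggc
GPR153: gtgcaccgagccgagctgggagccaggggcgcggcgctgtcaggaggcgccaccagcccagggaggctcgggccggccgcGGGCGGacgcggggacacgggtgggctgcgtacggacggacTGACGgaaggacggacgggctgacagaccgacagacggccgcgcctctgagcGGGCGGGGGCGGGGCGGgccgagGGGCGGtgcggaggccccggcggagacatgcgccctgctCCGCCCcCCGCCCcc
GPR3: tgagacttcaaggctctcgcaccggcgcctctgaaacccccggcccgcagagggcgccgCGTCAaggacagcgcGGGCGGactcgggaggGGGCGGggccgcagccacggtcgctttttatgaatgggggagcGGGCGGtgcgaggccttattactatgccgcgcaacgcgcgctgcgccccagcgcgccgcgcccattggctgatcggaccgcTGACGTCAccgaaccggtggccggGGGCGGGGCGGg
ADGRB2: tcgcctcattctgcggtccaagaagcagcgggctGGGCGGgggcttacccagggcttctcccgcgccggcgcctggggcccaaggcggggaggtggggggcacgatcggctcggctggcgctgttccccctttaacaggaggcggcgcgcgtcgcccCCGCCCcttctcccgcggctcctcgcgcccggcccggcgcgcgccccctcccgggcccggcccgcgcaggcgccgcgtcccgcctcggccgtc

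These windows are rich in G and C, with 78.0% in ADGRA3, 80.0% in GPR153, 72.8% in GPR3 and 79.6% in ADGRB2. The GC box GGGCGG, searched on both strands with overlaps counted, was found 3 times in ADGRA3, 7 times in GPR153, 5 times in GPR3 and 2 times in ADGRB2. The core TGACG was found 3 times in GPR3, of which 2 matches are the both strands' overlapping readings of the full element TGACGTCA, and 1 time in GPR153. Of the 15 genes called lower, 8 had a listed promoter, and a GC box was found in 8 of 9 start sites of these genes, in 20 of 37 start sites of the tested genes that were not called, and in 62.2% of the start sites of all tested genes. TGACG was found in 3 of the 9, in 10 of the 37 and in 27.0%. Some genes have several start sites. Counted by gene, a GC box was found in 8 of 8 genes called lower and 14 of 18 not called. For TGACG the counts by gene were 3 of 8 and 8 of 18. Over all listed promoters of the same length the shares were 42.6% for GGGCGG, 21.2% for TGACG and 1.65% for TGACGTCA. A match describes letters in a window, not a bound site.

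Downstream of the receptors, the G protein subunit list had calls in both directions. Of its 28 tested members 8 were higher and 8 lower, where 20.0% of all tested genes were called higher and 18.4% lower. Its median log2 fold change was -0.09, against -0.02 over all genes. GNG2, a gamma subunit, rose to 8.32 ± 0.708 CPM in ENL, against 1.74 ± 0.354 CPM in control, and GNA13, the alpha subunit through which several adhesion receptors reach RhoA, rose to 87.9 ± 9.75 CPM, against 51.2 ± 4.95 CPM (edgeR adjusted p = 0.000331 and 0.00258). Its relative GNA12 fell to 46.2 ± 1.56 CPM in ENL, against 68.3 ± 3.18 CPM in control, and the beta subunit gene GNB3 fell to 3.82 ± 0.385 CPM, against 7.08 ± 1.01 CPM (edgeR adjusted p = 0.00215 and 0.00644). GNA12 and GNA13, which share the role of RhoA activation, therefore lay on opposite sides of their controls.

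A list of receptor kinases, arrestins and RGS proteins, which end receptor signals, also held RIC8A and RIC8B, which are none of these and were not called. Of its 22 tested members 5 were higher and 3 lower, against 20.0% and 18.4% of all tested genes (median log2 fold change 0.16). RGS3 had 149, 154 and 135 CPM in ENL and 72.7, 73.5 and 73.6 CPM in control (log2 fold change 0.998 ± 0.08, edgeR adjusted p = 0.000201). RGS14 rose to 16.3 ± 1.43 CPM in ENL, against 9.53 ± 0.884 CPM in control. The arrestin gene ARRB1 fell to 1.04 ± 0.308 CPM in ENL, against 4.41 ± 0.680 CPM in control (log2 fold change -2.08 ± 0.28, edgeR adjusted p = 0.00181), while ARRB2 rose to 94.9 ± 3.87 CPM in ENL, against 70.2 ± 2.10 CPM in control (edgeR adjusted p = 0.00433). The receptor kinase gene GRK5 fell to 4.24 ± 0.724 CPM, against 8.08 ± 1.36 CPM. A list of cyclic AMP, phospholipase C and RhoA effectors had 2 of 24 tested members higher and 2 lower, against the same 20.0% and 18.4% (median log2 fold change -0.16). Both higher ones were phospholipase C genes. PLCB4, a phospholipase C, rose to 26.0 ± 4.90 CPM in ENL, against 15.4 ± 0.635 CPM in control (edgeR adjusted p = 0.00782). PLCB3 was at 87.05 ± 8.85 CPM in ENL and 65.4 ± 4.42 CPM in control, and 2 protein kinase A genes were lower, PRKACA with 53.0 ± 3.76 CPM in ENL and 65.7 ± 2.09 CPM in control and PRKAR2A with 51.2 ± 4.25 CPM in ENL and 64.4 ± 1.60 CPM in control (edgeR adjusted p = 0.019, 0.0286 and 0.0266). Each of these 3 calls was lost without control library 1 (edgeR adjusted p = 0.0706, 0.0729 and 0.0844), and without several other single libraries. With scaling by library totals alone PLCB3 had a log2 fold change of 0.20 (edgeR adjusted p = 0.106), against 0.41.

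Ligands and partners of adhesion receptors had 6 of 22 tested members higher and 7 lower, against 20.0% and 18.4% of all tested genes (median log2 fold change -0.003). UNC5B, a netrin receptor that joins complexes of latrophilins and FLRT proteins, rose to 41.3 ± 3.17 CPM in ENL, against 7.66 ± 0.178 CPM in control, and COL4A2, a basement membrane collagen, rose to 204 ± 4.92 CPM, against 141 ± 6.82 CPM (edgeR adjusted p = 2.46e-05 and 0.0017). LAMA2, a laminin chain, fell to 7.20 ± 0.466 CPM in ENL, against 23.9 ± 1.02 CPM in control, and TGM2, a transglutaminase that binds ADGRG1, fell to 4.16 ± 0.749 CPM, against 19.9 ± 1.51 CPM (edgeR adjusted p = 8.98e-05 and 0.000177).

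Related genes outside the symbol rule did not share 1 direction. The cadherin-type adhesion receptors CELSR1, CELSR2 and CELSR3 averaged 59.5 ± 11.9, 2.76 ± 0.140 and 42.1 ± 7.39 CPM in ENL and 40.9 ± 0.970, 6.24 ± 1.98 and 54.0 ± 4.50 CPM in control. CELSR1 was called higher (log2 fold change 0.54 ± 0.14, edgeR adjusted p = 0.0242), CELSR2 lower (-1.18 ± 0.26, edgeR adjusted p = 0.0117) and CELSR3 was not called (edgeR adjusted p = 0.0841). The CELSR1 call was lost without control library 1 (edgeR adjusted p = 0.0663), control library 2 (0.0688) or control library 3 (0.0771), and with scaling by library totals alone (0.147). CELSR3 was called lower without ENL library 3 (0.0106), with upper-quartile scaling (0.0385) and with library totals (0.0321). GPRC5A, a class C orphan induced by retinoic acid, had 375, 384 and 374 CPM in ENL and 87.1, 77.4 and 50.6 CPM in control (log2 fold change 2.40 ± 0.20, edgeR adjusted p = 0.000309). Its relative GPRC5C was at 1.83 ± 0.139 CPM in ENL and 0.394 ± 0.189 CPM in control (log2 fold change 2.21 ± 0.39, edgeR adjusted p = 0.00497). Of 11 tested genes on this list 3 were higher and 2 lower, against 20.0% and 18.4% of all tested genes. The other lower one was GPRIN1 at 18.2 ± 1.12 CPM in ENL and 26.2 ± 1.84 CPM in control (edgeR adjusted p = 0.00779). GPRC5D did not pass, with 1.11 ± 0.153 CPM in ENL and 1.57 ± 0.409 CPM in control (edgeR adjusted p = 0.221), and GPRC5B had too few counts to be tested.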

How the data were processed

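Total RNA of BT549 cells was made into mRNA-seq libraries, per the labels' protocols. FastQC, STAR, StringTie, DESeq2 and the build hg38 are named in the submitters' processing notes, without roles. The authors deposited 1 table of estimated counts per gene symbol, as whole numbers, so no rounding was needed. Of the values from 4 to 43, 70.8% to 73.1% lay at multiples of 4 or 1 above, so about 4 units stand for 1 fragment.

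Columns were matched to samples by name, and all 6 libraries differed by more than counting error. Low genes were dropped with filterByExpr (minimum count 10). Scaling was by TMM, and the test was that of edgeR 4.0.16 (quasi-likelihood, robust, two-sided, group alone, all genes, Benjamini-Hochberg) in R 4.3.3. limma 3.58.1 and DESeq2 1.42.0 served as alternatives. The procedure was also run on simulated counts with few changed genes, equally many in each direction. That setting is simpler than this table, so the run does not show how reliable the calls here are.

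Positions, lengths and exon overlaps of at least 100 bases come from GENCODE 29 (GRCh38). All 107 members matched, and overlaps were checked for members only. Promoters come from RefSeq. Named are the called members, uncalled members averaging 5 CPM or more in either group, and per list 2 called genes in each direction by adjusted p. A few members are counted but not reported by name here. Other genes named, ARRB2, CD55, THY1, CELSR1 and CELSR3 among them, and the division by role were chosen after their values were seen. Members, lists and rule were chosen with earlier results of these data known.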

Additional observations from a re-analysis of the deposited data

How the results depend on the processing

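The numbers of members called lower stayed between 10 and 18 under all settings tried, against 15. Of the 16 called members, 8 (among them ADGRA3, ADGRE5, ADGRL1, GPR3, GPR153, GPR158 and GPR176) kept their direction and call under all of them. Over the 24 members named by rule and their 366 settings, 27 lost a call and 10 gained one. Gains of other members are given beside their values. Summed with ZNF333, ADGRE2 gave a log2 fold change of 0.43. That sum takes its sign from ZNF333, which has most of the counts, and says nothing about ADGRE2. It is an alternative added after seeing the data like the other sums with overlapping neighbours and that of ADGRE2 with ADGRE5 (-1.55). The sums differ by construction in the reads they hold.

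Scaling by library totals alone gave 0 members higher (edgeR, also 0 at an unadjusted p under 0.05), where DESeq2 and limma-voom with their own scaling gave 1 each. Library totals also gave 1804 genes higher and 3996 lower in the whole table. At least 5 CPM in place of 1 CPM left 18 expressed members. Leaving out 1 library in turn gave 0 to 2 members higher (1 or 2 at an unadjusted p under 0.05 where 0 passed), 10 to 18 lower and 32 to 34 expressed. In the whole table it gave 2072 to 3156 higher and 1743 to 2877 lower genes. With the replicate block, 1 member was higher and 12 lower, and 2631 genes were higher and 2310 lower. The block ended the calls of GPR62 (edgeR adjusted p = 0.0715), GPR75 (0.0538), GPR89B (0.0636), CSF1R (0.0528) and PRKACA (0.0565), and CELSR3 was called lower with it (0.0351). Whether equal numbers mark paired libraries is not stated. Deviations of same-numbered libraries correlated at 0.03, 0.0455 and 0.0797, and those of differently numbered libraries at -0.0752 to 0.0322. ENL library 1 correlated best with control library 2 (0.0322). These correlations are small and rest on 3 libraries per group, so they cannot show whether libraries were paired. Of 31 other named genes, 31 of 463 settings lost a call and 4 gained one, with no change of sign. Members below about 1 CPM rest on few fragments, and differences there were often not detectable at this depth.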
